A study of Mus musculus with 8 samples.

Results

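Transcript levels of 10 cell-cycle genes were examined in mouse undifferentiated pleomorphic sarcoma (UPS), a soft tissue tumour without a clear line of differentiation. The genes were the D-type cyclins Ccnd1, Ccnd2 and Ccnd3, the E-type cyclins Ccne1 and Ccne2, the A-type cyclin Ccna2, the B-type cyclin Ccnb1, and the cyclin-dependent kinases Cdk2, Cdk4 and Cdk6. They were chosen by symbol, and all 10 were found among the 26667 genes of the count table. The tumours arose in the hind limbs of mice of a mixed 129/C57BL/6 strain after Cre recombinase was delivered by an injected adenovirus. All mice shared the conditional alleles of the KP strain, which include Trp53 fl/fl, a tumour suppressor gene that Cre deletes. Tumours with the alleles of that strain alone (KP, n = 4) are labelled wild type, which refers to Epas1, and tumours that also carried Epas1 fl/fl (KPH2, n = 4) are labelled Epas1 -/-. Epas1 encodes HIF-2α, an oxygen-regulated transcription factor. The mice were adults of both sexes, and neither the sex nor the age of single animals is given. Cre acts only in cells that the virus entered. The study reports efficient Epas1 deletion in KPH2 tumours by PCR, without saying whether these were the sequenced tumours. Which cells of a tumour had lost Epas1 was not measured. RNA was taken from formaldehyde-fixed, paraffin-embedded tumour, with 1 library per tumour. Bulk RNA does not tell a smaller number of cycling cells from less transcript in each cell.

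The study asked which transcripts differ when HIF-2α is lost from tumours of this kind. KP tumours are numbered 5 to 8 and KPH2 tumours 1 to 4, so no numbers pair them. The study's methods leave out 1 knockout tumour as an outlier, and KPH2 1 is the tumour missing from the deposited table of 7 normalised libraries. The comparison is therefore of KP 5 to 8 with KPH2 2 to 4 (7 tumours), KPH2 1 is given apart, and every test was repeated with it (8 tumours). Total counts per library ran from 6463221 to 13155510. The precursor of ribosomal RNA, Rn45s, took 1.08 to 2.79% of the counts in KP and 3.58 to 9.83% in KPH2 tumours, and its part in the results was not tested. Epas1 itself stood at 59.2, 83.2, 86.9 and 84.1 counts per 1e+06 counts of the scaled library (CPM) in KP 5 to 8, at 53.4, 37.7 and 42.5 CPM in KPH2 2 to 4, and at 32.6 CPM in KPH2 1. Every KPH2 tumour was below every KP tumour (log2 fold change −0.81 over 7 tumours, adjusted p = 0.0742 by edgeR), although reads from undeleted exons are counted too. All 10 mesenchymal markers listed, which do not tell tumour cells from stroma, were detected. Their summed level was 12900 to 25500 CPM in KP, 10400 to 18200 CPM in KPH2 2 to 4 and 11400 CPM in KPH2 1.

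Cyclins are regulatory subunits whose level or activity changes through the cell cycle, and cyclin-dependent kinases (CDKs) are the enzymes they switch on. In the textbook scheme, D-type cyclins respond to growth signals and activate CDK4 and CDK6, which begin to phosphorylate the retinoblastoma protein RB. E-type cyclins with CDK2 complete that step and start DNA replication, cyclin A acts in S phase and G2 with CDK2 and CDK1, and cyclin B with CDK1 drives mitosis. Loss of p53 removes an activator of the CDK inhibitor Cdkn1a.

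Promoter sequences are shown for Cdk6, the only one of the 10 genes whose groups did not overlap, for Cdk4, its partner in the same step, and for Ccnb1, a gene of the mitotic programme. They come from RefSeq on GRCm38.p6, run from 250 bases before to 50 bases after a start site, and are written 5′ to 3′ on the strand of the gene. Promoters were matched for 6 of the 10 genes, with 7 start sites. Capitals mark CACGTG, the E-box bound by MYC and related factors, ACGTG and GCGTG, the 2 forms of the core sequence bound by HIF proteins, and CCAAT, the box bound by NF-Y, each searched on both strands.
Cdk6, chr5:3343643-3343942, plus strand: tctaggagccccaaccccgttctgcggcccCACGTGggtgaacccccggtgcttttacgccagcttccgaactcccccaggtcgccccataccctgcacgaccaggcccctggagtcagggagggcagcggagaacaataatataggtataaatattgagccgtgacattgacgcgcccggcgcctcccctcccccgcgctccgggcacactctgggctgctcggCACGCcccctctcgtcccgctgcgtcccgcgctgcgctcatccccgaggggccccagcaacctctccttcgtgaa
Cdk4, chr10:127063285-127063584, plus strand: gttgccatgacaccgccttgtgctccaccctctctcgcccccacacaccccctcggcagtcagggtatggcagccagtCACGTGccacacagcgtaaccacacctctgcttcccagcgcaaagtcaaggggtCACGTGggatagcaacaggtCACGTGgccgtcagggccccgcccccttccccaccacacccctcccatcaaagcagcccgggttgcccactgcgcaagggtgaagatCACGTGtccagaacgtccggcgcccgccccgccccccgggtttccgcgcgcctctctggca
Ccnb1, chr13:100786437-100786736, minus strand: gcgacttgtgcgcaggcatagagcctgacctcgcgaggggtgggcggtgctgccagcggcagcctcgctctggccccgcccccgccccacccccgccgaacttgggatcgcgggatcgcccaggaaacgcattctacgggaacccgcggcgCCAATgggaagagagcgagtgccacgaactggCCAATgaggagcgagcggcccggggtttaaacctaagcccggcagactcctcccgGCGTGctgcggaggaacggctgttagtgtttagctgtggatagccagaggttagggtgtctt
The Cdk4 window held 4 copies of CACGTG, a sequence found at least once in 7.15% of the 32851 promoters of the same table. The Cdk6 window held 1 copy of CACGTG and 1 of GCGTG, which reads as CACGC on the strand shown. Because CACGTG contains ACGTG on each strand, the marks of these motifs coincide, and ACGTG was present in 19.6% of all promoters and GCGTG in 32.4%. The Ccnb1 window held 2 copies of CCAAT (37.4% of all promoters) and 1 of GCGTG. Among the other promoters, that of Cdk2 held 1 ACGTG and 1 CCAAT, that of Ccne1 held 1 ACGTG and 3 GCGTG, and 1 of the 2 start sites of Ccnd3 held 1 CCAAT and 1 GCGTG. The E2F-type sequences TTTCCCGC and TTTGGCGC and the sequence TTTGAA were also searched on both strands, and were present in 1.07, 0.514 and 17.9% of all promoters. Among the 7 windows, that of Cdk2 held 1 TTTCCCGC, on the opposite strand, and there was no other match. These are matches of letters, and binding was not measured.

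Over the 7 tumours, none of the 10 genes was called by edgeR's quasi-likelihood test at the adjusted threshold of 0.05, against 1.96% of the 14867 genes tested. At an unadjusted p under 0.05, 1 of the 10 was called, Cdk6, against 17.8% of all genes, and it was also the only one whose groups did not overlap, against 16.9% of all genes. Of the 10, 8 had a higher and 2 a lower fitted level in KPH2 tumours, with a median log2 fold change of 0.12, beside −0.02 over all genes. DESeq2, which called 1179 genes, also called 0 of the 10. Over all 8 tumours, 0 of the 10 passed the adjusted threshold in edgeR (0.00675% of 14805 genes), 1 had an unadjusted p under 0.05 (14.7%) and 1 had groups without overlap (8.15%), again Cdk6.

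**Figure D1:**
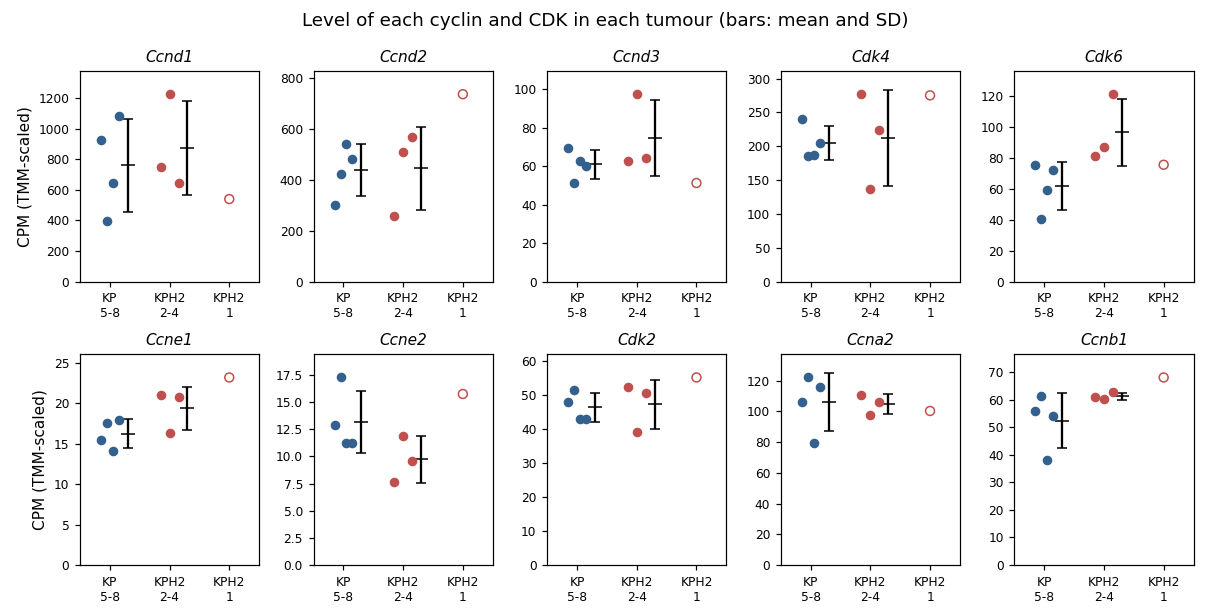
Level of each gene in CPM on the TMM scale (y axes, each from 0) in KP 5 to 8 (blue), KPH2 2 to 4 (red) and KPH2 1 (open red circle), where points are single tumours and bars the group mean ± SD. Cdk6 is the panel in which all KPH2 tumours lie above all KP tumours, by 75.6 against 75.5 CPM for the closest pair.

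Cdk6, the second kinase of the D-type cyclins (chromosome 5, 3341004 to 3531008, plus strand, GRCm38), was counted at 75.5, 40.6, 59.3 and 72.1 CPM in KP 5 to 8 and at 81.6, 87.0 and 121.2 CPM in KPH2 2 to 4. KP tumours averaged 61.9 ± 15.8 CPM (SD, n = 4), and KPH2 2 to 4 averaged 96.6 ± 21.5 CPM (SD, n = 3). The lowest level was in KP 6 and the highest in KPH2 4. This is a log2 fold change of 0.64 (SE 0.24, 95% interval 0.09 to 1.19), or 1.56-fold. Its p of 0.0279 from the edgeR fit became 0.213 after adjustment over all tested genes, so the difference was not called. A 2-sided exact permutation test of the 7 tumours gave p = 0.057, where 0.029 is the smallest value possible.

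KPH2 1 had a Cdk6 level of 75.6 CPM, just above KP 5, the highest KP tumour. Including it gave a log2 fold change of 0.56 (SE 0.23, edgeR adjusted p = 0.303) and an exact permutation p of 0.029 over the 8 tumours, which is again the smallest possible. That value is not adjusted over the 10 genes. In the 17 alternative fits the log2 fold change of Cdk6 ran from 0.43 to 0.76, always higher in KPH2, with adjusted p from 0.153 to 0.772. Skeletal muscle transcripts also moved with the group. Summed over 30 muscle markers they stood at 1890 to 3430 CPM in KP, at 12760, 19950 and 4411 CPM in KPH2 2, 3 and 4, and at 1560 CPM in KPH2 1. With a muscle score in the edgeR fit the log2 fold change of Cdk6 was 0.68 (adjusted p = 0.772). That score, the mean log2 CPM of the 30 markers, was 3.50 to 4.64 in KP and 4.82 to 7.15 in KPH2 2 to 4. The groups did not overlap in it, so this fit cannot tell muscle from group. The part of muscle tissue in the level of Cdk6 was not tested further.

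**Figure D2:**
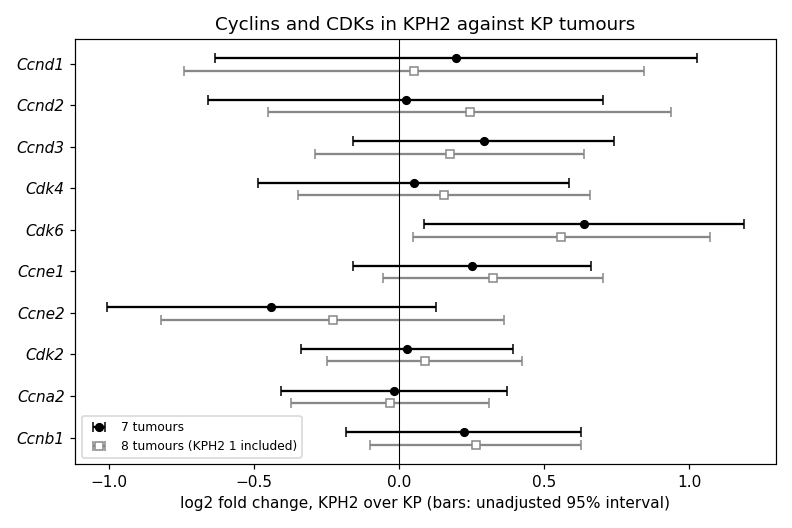
Fitted log2 fold change of each gene, KPH2 over KP (x axis), with its unadjusted 95% interval, over 7 tumours (black circles) and over 8 tumours with KPH2 1 included (open grey squares). The interval lies above 0 for Cdk6 in both fits and includes 0 for the other 9 genes in both.

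Cdk4, the other kinase of the D-type cyclins (chromosome 10, 127063535 to 127067288, plus strand), had groups that overlapped. Its level was 240.0, 186.3, 187.5 and 205.3 CPM in KP 5 to 8, and 277.0, 136.5 and 224.1 CPM in KPH2 2 to 4. KPH2 tumours thus held both the highest and the lowest level, with KPH2 1 at 275.3 CPM. Its log2 fold change was 0.05 (SE 0.23, 95% interval −0.48 to 0.59, edgeR adjusted p = 0.939). Exons of Cdk4 share 31.2% of their bases with Tspan31 on the opposite strand, and the strand setting of the counting is not given in the sources used here. Tspan31 had 496 to 1330 reads per library beside 1265 to 3444 for Cdk4, and like Cdk4 it was lowest in KPH2 3, at 54.5 CPM. The part of this overlap in the level of Cdk4 was not tested. Per read, the ratio of Cdk6 to Cdk4 counts was 0.314, 0.218, 0.316 and 0.352 in KP 5 to 8, and 0.294, 0.637 and 0.541 in KPH2 2 to 4, with 0.275 in KPH2 1. KPH2 3 and 4 lay above all KP tumours, and KPH2 2 and KPH2 1 lay among them. The difference in mean log2 ratio was 0.66 (2-sided exact permutation test, p = 0.17, Benjamini-Hochberg value 0.43 over 5 ratios).

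Ccnd1, encoding cyclin D1, had the widest range of the 10 genes. It stood at 926.1, 395.4, 643.7 and 1079 CPM in KP 5 to 8, at 749.8, 1224 and 646.6 CPM in KPH2 2 to 4, and at 539.9 CPM in KPH2 1. The highest tumour, KPH2 3, and the lowest, KP 6, differed 3.09-fold, and the groups overlapped broadly. KP tumours averaged 761 ± 303 CPM (SD, n = 4) against 873 ± 308 CPM (SD, n = 3) for KPH2 2 to 4, and the fitted log2 fold change was 0.20 (SE 0.36, 95% interval −0.63 to 1.03, edgeR adjusted p = 0.834). KPH2 3 was also the tumour with the most muscle signal. With the muscle score in the fit, which cannot tell muscle from group, the sign turned, to −0.82 (edgeR adjusted p = 0.742). The annotated exons of Ccnd1 share 29.4% of their bases with LTO1 on the opposite strand, which is listed as Oraov1 in the counts, at only 71 to 222 reads per library beside 2795 to 14303 for Ccnd1.

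Ccnd2, encoding cyclin D2, was highest in KPH2 1 at 736.0 CPM. The other levels were 303.2, 421.6, 541.8 and 482.9 CPM in KP 5 to 8 and 258.5, 507.4 and 568.7 CPM in KPH2 2 to 4. KPH2 2 was the lowest of all, so KPH2 tumours again held both ends of the range. For Ccnd2 the log2 fold change was 0.02 over 7 tumours (SE 0.30, edgeR adjusted p = 0.979) and 0.24 with KPH2 1 (SE 0.31, edgeR adjusted p = 0.760). The ratio of Ccnd2 to Ccnd1 counts ran from 0.327 in KP 5 to 1.07 in KP 6 and from 0.345 to 0.880 in KPH2 2 to 4, and was 1.36 in KPH2 1. Its log2 mean differed between groups by −0.27 (2-sided exact permutation test, p = 0.71).

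Ccnd3, encoding cyclin D3, was lower and steadier, at 69.3, 51.2, 62.9 and 60.3 CPM in KP 5 to 8 and at 62.6, 97.3 and 64.2 CPM in KPH2 2 to 4. Only KPH2 3, the tumour richest in muscle transcripts, lay above the KP range, and KPH2 1 stood at 51.2 CPM. The log2 fold change was 0.29 (SE 0.20, 95% interval −0.16 to 0.74, edgeR adjusted p = 0.493). It was 0.06 without KPH2 3, 0.18 over 8 tumours and −0.15 with the muscle score in the fit (edgeR adjusted p = 0.966). Exons of Ccnd3 share 15.9% of their bases with Bysl on the opposite strand, at 162 to 387 reads per library beside 362 to 972 for Ccnd3. The part of this overlap in the level of Ccnd3 was not tested. The part of muscle tissue in the levels of Ccnd1 and Ccnd3 was not tested further. The ratio of Ccnd3 to Ccnd1 differed between groups by 0.03 on the log2 scale (2-sided exact permutation test, p = 0.94).

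Levels of different genes were compared per kilobase of exon, over transcripts matched to RefSeq. Bases shared with opposite-strand genes were kept in that length, and their part in this scale was not tested. On that scale Ccnd1 made up 51.0 to 75.9% of the D-type cyclin transcript, Ccnd2 14.7 to 41.0% and Ccnd3 6.82 to 11.6% over the 8 tumours. KP 6 and KPH2 1 had the most even split between Ccnd1 and Ccnd2, at 54.2 and 34.2% in KP 6 and at 51.0 and 41.0% in KPH2 1. Cdk6 was a small share of the kinase pair, 3.74 to 5.89% in KP tumours, 4.98, 10.2 and 8.79% in KPH2 2 to 4, and 4.66% in KPH2 1. The matched transcript of Cdk6 has 11525 exon bases, against 2053 for Cdk4.

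**Figure D3:**
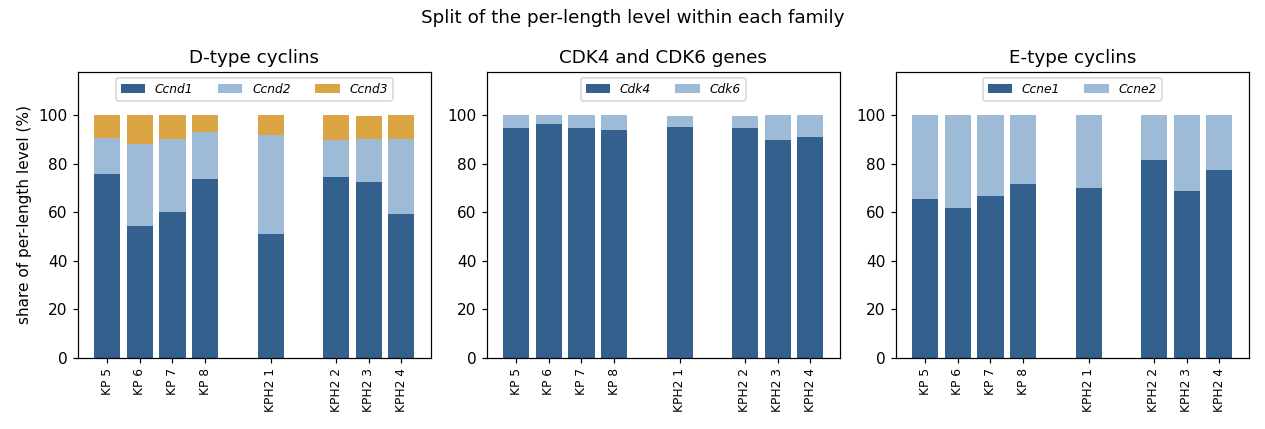
Share of the per-length level (y axis, %) of each gene within the D-type cyclins, the CDK4 and CDK6 pair and the E-type cyclins, with 1 bar per tumour and KPH2 1 set apart. Ccnd1 takes 51.0 to 75.9% of the D-type cyclins, Cdk6 at most 10.2% of its pair, and Ccne2 18.5 to 38.1% of the E-type cyclins.

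Over all 10 genes, the mean per-length level of the 8 tumours ranked from high to low as Ccnd1 (207.4 CPM per kilobase), Cdk4 (105.5), Ccnd2 (75.4), Ccna2 (35.4), Ccnd3 (28.7), Ccnb1 (23.2), Cdk2 (19.9), Ccne1 (9.14), Cdk6 (6.65) and Ccne2 (3.81). Ccnd1 exceeded Cdk4, Ccnd2 exceeded Ccna2, and Cdk2 exceeded Ccne1 in 8 of 8 tumours. Ccna2 and Ccnd3, and Ccnd3 and Ccnb1, were the least separated neighbours, each in that order in 6 of 8 tumours. The other neighbours kept their order in 7 of 8. This ranking holds for the lengths matched to RefSeq. Over all annotated exons Ccnd3 has 8775 bases instead of 2258, and Cdk2 6219 instead of 2411. Neither the ranking nor the shares were repeated with those lengths.

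The E-type cyclins, which activate CDK2 at the start of S phase, were the least abundant cyclins per length, and their fitted changes had opposite signs, neither past the threshold. Ccne1 was counted at 15.5, 17.5, 14.1 and 17.9 CPM in KP 5 to 8 and at 21.1, 16.3 and 20.7 CPM in KPH2 2 to 4, with its highest level, 23.2 CPM, in KPH2 1. Its log2 fold change was 0.25 (SE 0.18, 95% interval −0.16 to 0.66, edgeR adjusted p = 0.518), with only KPH2 3 inside the KP range. Ccne2 was counted at 12.9, 17.3, 11.3 and 11.2 CPM in KP 5 to 8, at 7.65, 11.9 and 9.58 CPM in KPH2 2 to 4, and at 15.7 CPM in KPH2 1. KPH2 2 and 4 lay below all KP tumours, and the log2 fold change was −0.44 (SE 0.25, edgeR adjusted p = 0.406), with a 95% interval of 0.498 to 1.09 times the KP level. With KPH2 1 it was −0.23 (edgeR adjusted p = 0.733), and over the fits without 1 of the 7 tumours it ran from −0.61 to −0.29. These levels rest on 76 to 197 reads of Ccne2 and 95 to 290 of Ccne1 per library.

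The ratio of Ccne2 to Ccne1 counts, which does not depend on the scaling of the libraries, was 0.837, 0.984, 0.800 and 0.629 in KP 5 to 8 and 0.363, 0.730 and 0.462 in KPH2 2 to 4. KPH2 1, at 0.679, lay within the KP range with KPH2 3. The mean log2 ratio of KP tumours was −0.31 ± 0.26 (SD, n = 4), against −0.99 ± 0.50 (SD, n = 3) for KPH2 2 to 4. The difference of −0.68 was not past the threshold (2-sided exact permutation test over 7 tumours, p = 0.086, Benjamini-Hochberg value 0.43 over 5 ratios). Exons of Ccne2 share 19.0% of their bases with Ints8 on the opposite strand, which had 299 to 672 reads per library, more than the 76 to 197 of Ccne2. The part of this overlap in the level of Ccne2 and in the ratio was not tested.

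Cdk2, the kinase partner of cyclins E and A, varied least of the 10, 1.42-fold between its extremes. It stood at 48.1, 51.5, 43.0 and 43.0 CPM in KP 5 to 8, at 52.4, 39.0 and 50.6 CPM in KPH2 2 to 4, and at 55.2 CPM in KPH2 1. KPH2 3 was the lowest for Cdk2, as it was for Cdk4. Between the groups the log2 fold change was 0.03 (SE 0.16, edgeR adjusted p = 0.952), and its 95% interval corresponds to a level between 0.791 and 1.31 times that of KP.

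Ccna2, encoding cyclin A2 of S phase and G2, was counted at 106.2, 122.1, 79.8 and 116.1 CPM in KP 5 to 8, at 110.9, 98.0 and 105.9 CPM in KPH2 2 to 4, and at 100.3 CPM in KPH2 1. All KPH2 tumours lay inside the KP range. The log2 fold change was −0.02 (SE 0.17, edgeR adjusted p = 0.972), with a 95% interval of 0.754 to 1.29 times the KP level. Exons of Ccna2 share 17.2% of their bases with Exosc9 on the opposite strand, at 198 to 475 reads per library beside 538 to 1539 for Ccna2. The part of this overlap in the level of Ccna2 was not tested. Ccnb1, encoding cyclin B1 of mitosis, was counted at 55.9, 61.3, 38.3 and 54.2 CPM in KP 5 to 8, and at a narrow 60.9, 60.2 and 62.7 CPM in KPH2 2 to 4. KPH2 1 was the highest at 68.1 CPM, and KP 7 was the lowest for Ccnb1 as for Ccna2 and Ccne1. The log2 fold change of Ccnb1 was 0.22 (SE 0.18, 95% interval −0.18 to 0.63, edgeR adjusted p = 0.568), and 0.10 without KP 7. With KPH2 1 included, both Ccnb1 and Ccne1 had an exact permutation p of 0.086 over the 8 tumours. The ratio of Ccnb1 to Ccne1, a mitotic against a G1/S cyclin, was 2.72 to 3.62 in KP and 2.89 to 3.69 in KPH2 2 to 4, and its log2 mean differed by −0.0026 (2-sided exact permutation test, p = 0.97).

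The 10 genes did not move as one block across the tumours. KPH2 1 held the highest level of Ccnd2, Ccne1, Ccnb1 and Cdk2, the next to highest of Ccne2 and Cdk4, and the next to lowest of Ccnd1 and Ccnd3. Over the 8 tumours, 45 pairs of genes were correlated on log2 CPM, 23 with a positive and 22 with a negative r, and 6 had an unadjusted exact permutation p under 0.05 for r. The strongest was Cdk2 with Cdk4 (Pearson r = 0.820, exact permutation p = 0.0112, Spearman rho = 0.714, exact permutation p = 0.0576). Without the 2 tumours farthest from the median of Cdk2 it was r = 0.517. Dropping tumours in this way narrows the range of that gene, which tends to lower r by itself. Such values therefore cannot tell whether a few tumours carry a pair. Next came Ccnd1 with Ccnd3 (Pearson r = 0.791, exact permutation p = 0.0164, Spearman rho = 0.690, exact permutation p = 0.0694, and r = 0.527 without the 2 tumours farthest from the median of Ccnd1). Ccne1 with Ccnb1 had the smallest p (Pearson r = 0.779, exact permutation p = 0.00662, Spearman rho = 0.762, exact permutation p = 0.0368, and r = 0.533 without 2 tumours chosen in the same way). The strongest negative relation was that of Ccnd3 with Cdk2 (Pearson r = −0.748, exact permutation p = 0.0264, Spearman rho = −0.643, exact permutation p = 0.0962, and r = −0.421 without 2 tumours). Ccnd1 with Cdk2 was also negative (Pearson r = −0.716, exact permutation p = 0.0489, Spearman rho = −0.619, exact permutation p = 0.115, and r = −0.573 without 2 tumours), and the remaining pair of the 6 was Ccne1 with Cdk2 (Pearson r = 0.719, exact permutation p = 0.0487, Spearman rho = 0.786, exact permutation p = 0.0279, and r = 0.554 without 2 tumours). No pair passed the adjustment over the 45 pairs, where these 6 had Benjamini-Hochberg values of 0.246 to 0.367 for r and 0.551 to 0.575 for rho. Within KP or KPH2 alone there were too few tumours for a correlation.

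For the 3 genes with the widest range, the genes of most similar profile over the 8 tumours were sought, by the root mean square difference of log2 CPM after centring each gene. For Cdk6 these were Apex1, a DNA repair enzyme, Ccdc39 and Stk36, at 0.13, 0.16 and 0.16, beside a median of 0.55 over the 14804 genes compared. Apex1 itself stood at 7.65, 3.40, 6.08 and 6.57 CPM in KP 5 to 8, 8.91, 8.11 and 10.7 CPM in KPH2 2 to 4, and 8.23 CPM in KPH2 1. For Ccnd1 they were Prosapip1, Ppdpf and Alyref2, at 0.22 to 0.24, beside a median of 0.62. For Ccnd2 they were LOC100861633, 2610318N02Rik and Zfp964, at 0.16 to 0.20, beside a median of 0.57. All of these but LOC100861633 were counted at under 20 CPM in each tumour, and likeness over 8 tumours is only a description.

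Other genes of the cell-cycle machinery gave the setting for these values. Of 16 other cell-cycle cyclins and CDKs, 13 were tested over the 7 tumours, 6 higher and 7 lower in KPH2, with a median log2 fold change of −0.0016 and 0 past the adjusted p. At an unadjusted p under 0.05, 3 of the 13 were called, all higher, near the 17.8% of all genes. The smallest p-values were those of Cdk18, at 2.46 ± 1.18 CPM in KP against 8.38 ± 1.34 CPM in KPH2 2 to 4 (SD, n = 4 and 3; log2 fold change 1.79, edgeR adjusted p = 0.0523), and of Mnat1, an assembly factor of the CDK-activating kinase (0.59, edgeR adjusted p = 0.103). KPH2 1 stood with the KP tumours for Cdk18, at 2.56 CPM, and above all of them for Mnat1, at 41.4 CPM against at most 27.0. Cdk1, the mitotic kinase, was 77.2 ± 11.9 CPM in KP against 62.1 ± 20.4 CPM in KPH2 2 to 4 (SD, n = 4 and 3), with 97.5 CPM in KPH2 1 (log2 fold change −0.32, edgeR adjusted p = 0.536). Its log2 fold change was −0.60 without KPH2 2 and −0.12 without KPH2 3. Of 13 cyclins and CDKs that act on transcription, 8 were higher and 5 lower, 0 had an unadjusted p under 0.05, and the median was 0.06. Those with the smallest p were Cdk8, of the Mediator complex (log2 fold change 0.35, edgeR adjusted p = 0.294), and Ccnl1 (−0.34, edgeR adjusted p = 0.468). KPH2 1 had the highest Ccnl1 of all, 145.2 CPM, and with it the log2 fold change was −0.02.

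Among 8 CDK inhibitors, 5 were higher and 3 lower, with a median of 0.17, and 0 passed the adjusted p. Cdkn1a, encoding p21, stood at 17.9, 29.7, 24.2 and 22.6 CPM in KP 5 to 8 and at 65.5, 48.5 and 39.3 CPM in KPH2 2 to 4. All 3 of those KPH2 tumours lay above all KP tumours, while KPH2 1, at 14.8 CPM, was the lowest of all. The log2 fold change was 1.12 (SE 0.23, edgeR adjusted p = 0.0515) over 7 tumours, just short of the threshold, and 0.84 (edgeR adjusted p = 0.361) over 8. It passed in 4 of 17 alternatives, among them DESeq2 (adjusted p = 0.00123). Cdkn1b, encoding p27, was 41.6 ± 5.38 CPM in KP against 31.9 ± 2.15 CPM in KPH2 2 to 4 (SD, n = 4 and 3; log2 fold change −0.39, edgeR adjusted p = 0.247), with 60.7 CPM in KPH2 1. Of 13 CDK activators and adaptors, 5 were higher and 8 lower, with a median of −0.14 and 0 past the adjusted p. Cables1 (log2 fold change −0.93, edgeR adjusted p = 0.119) and Cdc25a, a phosphatase that activates CDK2 (−0.47, edgeR adjusted p = 0.231), had the smallest p. KPH2 1 stood below all KP tumours for Cables1, at 4.7 CPM, and inside the KP range for Cdc25a, at 34.8 CPM. Over 8 tumours the log2 fold change was −1.01 for Cables1 (edgeR adjusted p = 0.152) and −0.29 for Cdc25a (edgeR adjusted p = 0.541).

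The RB and E2F group includes the gene of RB, the target of the CDK4 and CDK6 step. Of its 13 genes, 8 were higher and 5 lower, with a median of 0.17, and 1 rose. This was E2f2, an activating E2F, at 8.32, 13.9, 7.56 and 12.8 CPM in KP 5 to 8 and at 20.3, 29.4 and 32.7 CPM in KPH2 2 to 4. The groups did not overlap, and the log2 fold change was 1.36 (SE 0.27, edgeR adjusted p = 0.0492). KPH2 1, at 9.27 CPM, lay among the KP tumours, and over 8 tumours the adjusted p was 0.255 (log2 fold change 1.10). Leaving out any 1 of the 7 tumours also ended the call, with edgeR adjusted p from 0.0673 to 0.139. Of the 17 alternatives 5 kept it, and it was also lost with upper-quartile scaling (edgeR adjusted p = 0.0509), with a mean count of at least 50 (0.0529) and with the muscle score in the fit (log2 fold change 1.58, edgeR adjusted p = 0.419). E2f8, a repressing E2F, was next (log2 fold change 0.62, edgeR adjusted p = 0.171). Its level was 43.4 ± 9.04 CPM in KP against 66.7 ± 11.7 CPM in KPH2 2 to 4 (SD, n = 4 and 3), with 32.2 CPM in KPH2 1.

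Genes of the proliferation programme showed no call at the adjusted threshold. Of 20 G1/S genes, 12 were higher and 8 lower over 7 tumours, with a median of 0.17, and 3 had an unadjusted p under 0.05, all higher, beside 17.8% of all genes. Over 8 tumours 16 were higher and 4 lower, with a median of 0.20 and 6 at an unadjusted p under 0.05, beside 14.7% of all genes. Their summed level was 972 to 1100 CPM in KP, 1130 to 1160 CPM in KPH2 2 to 4 and 1430 CPM in KPH2 1. Rrm2, a subunit of ribonucleotide reductase, was 30.5 ± 6.69 CPM in KP against 50.2 ± 2.79 CPM in KPH2 2 to 4 (SD, n = 4 and 3; log2 fold change 0.72, edgeR adjusted p = 0.0927). KPH2 1, at 31.97 CPM of Rrm2, lay inside the KP range, and over 8 tumours the edgeR adjusted p was 0.264. Cdt1, a licensing factor, had a log2 fold change of 0.56 (edgeR adjusted p = 0.260). Of 20 G2/M genes, 12 were higher and 8 lower, with a median of 0.07 and 0 at an unadjusted p under 0.05. The smallest p in that list belonged to Ube2c, which acts in mitotic exit (log2 fold change 0.39, edgeR adjusted p = 0.380). Mki67, the gene of the proliferation marker Ki-67, was 388 ± 93.0 CPM in KP against 300 ± 52.3 CPM in KPH2 2 to 4 (SD, n = 4 and 3), with 419 CPM in KPH2 1 (log2 fold change −0.37, edgeR adjusted p = 0.432). Its log2 fold change was −0.23 without KP 5 and −0.52 without KPH2 3.

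**Figure D4:**
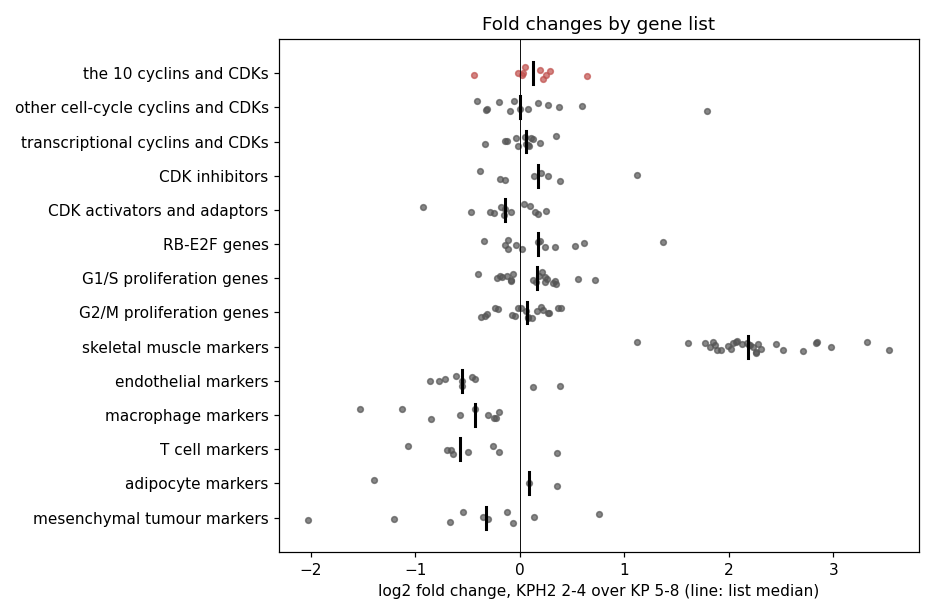
Log2 fold change of each tested gene, KPH2 2 to 4 over KP 5 to 8 (x axis), by gene list (y axis), with points as genes and black lines as list medians. The 10 cyclins and CDKs (red, median 0.12) lie within the spread of the other cell-cycle lists, whereas the skeletal muscle markers have a median of 2.18.

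The medians of the skeletal muscle, macrophage, endothelial, T cell and mesenchymal markers lay farther from 0 than that of any cell-cycle list. All 30 skeletal muscle markers were higher over the 7 tumours, with a median log2 fold change of 2.18, 29 at an unadjusted p under 0.05 and 3 past the adjusted p (Eno3, Myoz2 and Neb). Macrophage markers were lower in 9 of 9 tested (median −0.43, 4 at an unadjusted p under 0.05), endothelial markers in 8 of 10 (−0.56, 4 at an unadjusted p under 0.05) and T cell markers in 7 of 8 (−0.57, 0 at an unadjusted p under 0.05), with 0 past the adjusted p in each list. Of all genes, 17.8% had an unadjusted p under 0.05 over the 7 tumours. Over 8 tumours the count was 20 of 30 for muscle, 5 of 9 for macrophage, 7 of 10 for endothelial and 0 of 8 for T cell markers, beside 14.7% of all genes. Of 8 adipocyte markers 3 could be tested, 2 higher and 1 lower. Of 10 mesenchymal markers 8 were lower (median −0.33) and 1 fell, Pdgfra, a receptor of fibroblast-like cells (log2 fold change −2.02, edgeR adjusted p = 0.0183). With KPH2 1, at 639 CPM of Pdgfra, that call ended (−1.53, edgeR adjusted p = 0.160), as did those of the 3 muscle markers. The part of these cell populations in the levels of the 10 genes was not tested.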

How the data were processed

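Stranded, ribosome-depleted RNA libraries were sequenced from 8 UPS tumours. The authors used STAR 2.4 for alignment to GRCm38 and HTSeq 0.6.1 for counting per RefSeq gene, per the labels and the study's methods, and deposited whole-number counts without normalization. They also deposited log2 values from the regularized log transformation (rlog) of DESeq2 1.6, for 7 and for 8 tumours, which served only as an alternative. All per-sample columns were used.

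Tests on the counts used edgeR 4.0.16 under R 4.3.3: TMM scaling, a filter on low counts (minimum count 10, minimum total 15), robust dispersions, the quasi-likelihood test and Benjamini-Hochberg adjustment (threshold 0.05) across every gene tested. CPM used the TMM scale of all 8 libraries, and log2 CPM a prior count of 2. The biological coefficient of variation was 0.313 over 7 tumours and 0.347 over 8. Ratios within a tumour were compared by 2-sided exact permutation tests, over 35 splits of 7 tumours and 70 splits of 8. P-values measure the spread between these tumours, each taken as 1 animal. No pair of libraries was alike within counting noise (smallest chi-square per degree of freedom 30.0). Exon overlaps and lengths came from the GRCm38 annotation. The scripts were tested on simulated data.

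The 10 genes and all gene lists were chosen with earlier results of these data known. Named besides the 10 are the 2 genes of each cell-cycle list with the smallest unadjusted p, any listed gene past the adjusted threshold, Cdkn1a, Cdk1 and Mki67, and the 3 genes most like each of the 3 members of widest range. Outside this rule, Epas1 and Rn45s are given as checks of the tumours and libraries, and Tspan31, Oraov1, Bysl, Ints8 and Exosc9 because they overlap a member; these were chosen after their values were seen. Alternatives were all 8 tumours, other scalings and filters, DESeq2 1.42.0, no robust estimates, a muscle score as covariate, rlog values with limma 3.58.1, another prior count and leaving out each tumour. Protein sequences were not used here, and a further allele that both groups share is not reported here.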

Additional observations from a re-analysis of the deposited data

How the results depend on the processing

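No paired analysis was possible because the groups share no replicate numbers. The number of genes called over the 7 tumours, 292, became 1 over all 8 tumours, 1179 with DESeq2 and 3 with the muscle score as covariate, and 55 to 349 with each tumour left out in turn (55 without KPH2 2, 73 without KP 7, 130 without KP 6 and also without KP 8, 153 without KPH2 4, 159 without KPH2 3). The other settings gave 215 to 338. None of the 10 genes was called in any of the 17 alternatives. The sign held in all 17 for Cdk6, Ccne1, Ccne2 and Ccnb1. It turned with the muscle score for Ccnd1 (−0.82) and Ccnd3 (−0.15), and on the authors' rlog values of 7 tumours for Ccnd2 (−0.0077) and Ccna2 (0.0024). With each tumour left out, the log2 fold change ran from −0.12 to 0.41 for Ccnd1, −0.19 to 0.30 for Ccnd2, 0.06 to 0.41 for Ccnd3, 0.10 to 0.30 for Ccnb1, −0.61 to −0.29 for Ccne2, −0.13 to 0.055 for Ccna2, −0.050 to 0.15 for Cdk2 and −0.18 to 0.29 for Cdk4. The log2 ratio of Ccnd2 to Ccnd1 turned to 0.10 over all 8 tumours and ran from −0.67 to 0.0094 with each tumour left out. That of Ccnd3 to Ccnd1 ran from −0.17 to 0.23, and that of Ccnb1 to Ccne1 from −0.11 to 0.067, with 0.0068 on rlog values of 7 tumours. The ratios of Cdk6 to Cdk4 (0.43 without KPH2 3 to 0.99 without KPH2 2) and of Ccne2 to Ccne1 (−0.95 without KPH2 3 to −0.46 without KPH2 2) kept their sign in all alternatives run. The cause of these shifts was not tested. Groups of 3 and 4 tumours limit the precision.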
